A study of Mus musculus with 9 samples.

Results

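The E2f and retinoblastoma family was examined as 10 genes, each found by its symbol among the 31167 genes of the expression table. They were the activators E2f1, E2f2 and E2f3, the repressors E2f4, E2f5, E2f7 and E2f8, and the pocket protein genes Rb1, Rbl1 and Rbl2. All 10 were above the filter of a mean of 0.5 FPKM (fragments per kilobase, a level corrected for gene length and library depth), so each was tested in every comparison. RNA sequencing was done on primary renal tubular epithelial cells from C57BL/6 mice in 3 groups of 3 libraries. Sham cells were untreated. H/R cells were held for 6 h at 1.0% oxygen in glucose-free medium and then for 18 h in complete medium under normal conditions, a culture model of ischemia and reperfusion. EGR1OV cells received a plasmid in which a CMV promoter, active in most cell types, drives Egr1, an immediate early transcription factor. EndoFectin Max was the transfection reagent and the cells were about 50% confluent. The labels give all 9 libraries the same treatment text and name H/R and the plasmid only by group, so it rests on the study's own account of its groups that Sham was untreated, that EGR1OV received the plasmid in place of H/R and that the promoter was CMV. No group with an empty plasmid was compared here, so Egr1 itself and the transfection cannot be told apart. The sources used here do not state whether the libraries of a group came from separate cultures, so the p-values measure the spread between these libraries, which may be technical.

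E2F proteins bind the promoters of genes for DNA synthesis, as dimers with DP proteins, and decide whether a cell enters S phase. Pocket proteins bind E2Fs and keep these promoters silent until cyclin-dependent kinases phosphorylate them. In resting cells E2F4 and E2F5 act with the pocket proteins Rbl1 and Rbl2 and the MuvB core in the DREAM complex, whereas E2F7 and E2F8 repress without pocket proteins or DP partners and are themselves made as cells enter S phase. Tubular epithelium in the healthy kidney is largely at rest and re-enters the cell cycle after injury.

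Libraries held 16183617 to 18384022 reads, as recovered from the FPKM steps. Egr1 was 6.09 to 6.91 FPKM in Sham, 7.48 to 8.57 FPKM under H/R and 40.1 to 45.7 FPKM in EGR1OV, so the level of the targeted gene fitted the labels in all 9 libraries. Of the 11 tubule markers in the table, 9 were at 0.5 FPKM or more on average, and Slc34a1 and Umod, which mark differentiated tubule segments, were near 0 in every group. The summed tubule markers were 1928 to 1965 FPKM in Sham, 1784 to 1862 under H/R and 1270 to 1376 in EGR1OV. The cultures also held leukocyte transcripts, whose summed level over the 10 markers in the table was 140 to 144 FPKM in Sham, 116 to 123 under H/R and 22.1 to 26.7 in EGR1OV. The B cell marker Cd79a was near 0 throughout. The summed endothelial markers were 9.32 to 9.75 FPKM in Sham and 6.55 to 7.20 FPKM in EGR1OV.

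Expression of the family was dominated by repressors. E2f4 was the most abundant member in every library, at 23.3 to 24.1 FPKM in Sham, and E2f5 came next at 10.3 to 10.95 FPKM. Rb1 and E2f3 followed, and their Sham libraries overlapped. Below them stood Rbl1, E2f1 and Rbl2, each above the next in all Sham libraries, and then E2f7 and E2f8, which overlapped. E2f2 was last, below 1 FPKM in all 9 libraries. After H/R the order was the same except that Rbl2 stood above E2f1. In EGR1OV, Rb1 dropped out of its place beside E2f3 and its libraries overlapped those of Rbl1. There E2f3 stood above Rb1 in every library, Rbl1 overlapped E2f1, E2f7 stood above E2f8, and E2f8 overlapped E2f2.

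**Figure D1:**
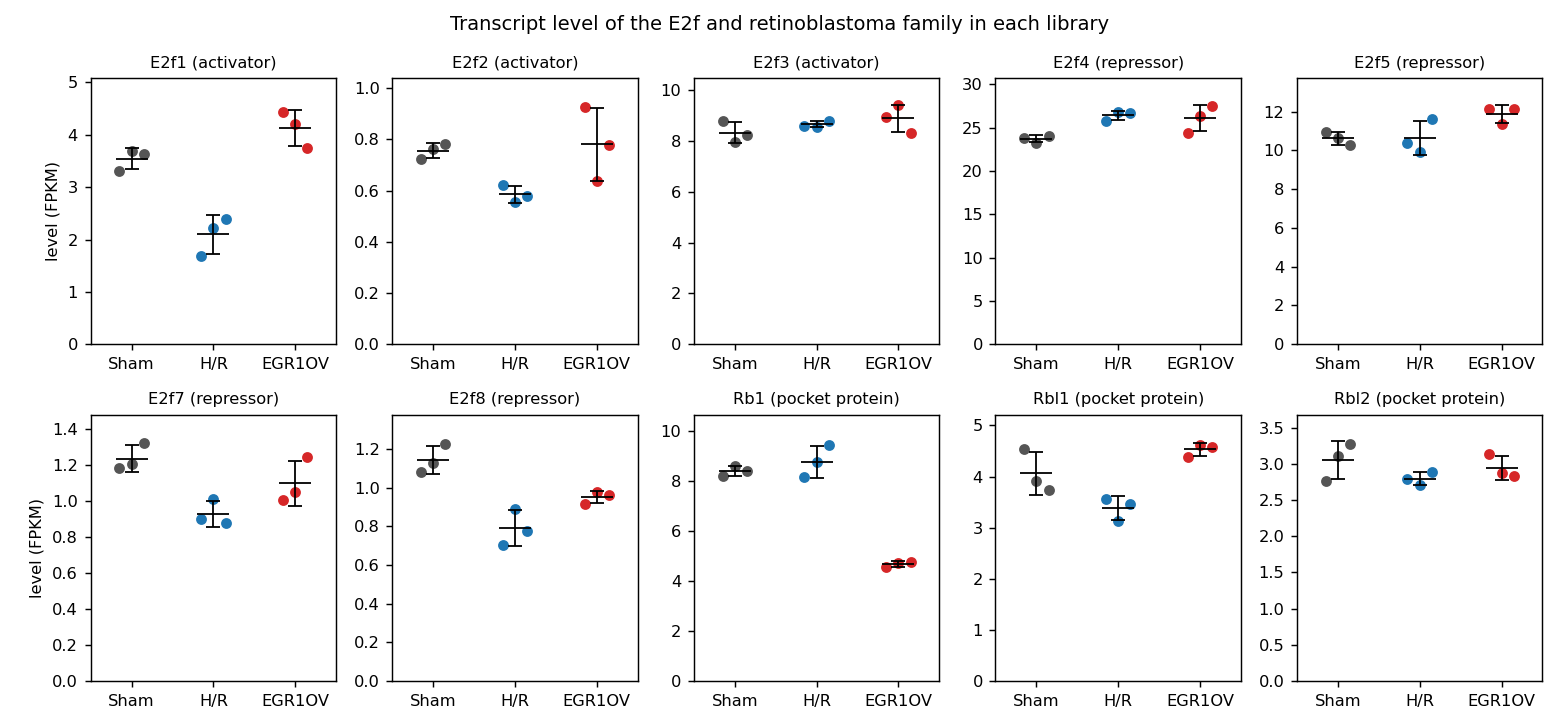
Transcript level in FPKM (vertical axis, linear and from 0, with its own range for each gene) of the 10 members in the 9 libraries, grouped as Sham, H/R and EGR1OV. Points are libraries and bars are the mean and SD of 3 libraries. The H/R libraries of E2f1 (1.68 to 2.40 FPKM) and the EGR1OV libraries of Rb1 (4.56 to 4.76 FPKM) lie apart from those of the other groups.

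The members called between the groups at the thresholds below were E2f1 and Rb1. E2f1 was lower after H/R, and Rb1 was lower in EGR1OV. A gene was called when limma gave an adjusted p under 0.05 over the 13985 genes tested and the change was at least 1.2-fold (H/R against Sham) or 1.3-fold (EGR1OV against Sham or H/R), with the change taken on the log2(FPKM + 1) scale, which understates the change of low genes. After H/R, 1 of the 10 members was called, and it was lower, where 4.25% of all genes tested were called, 2.65% lower and 1.6% higher. In EGR1OV against Sham, 1 member was called, also lower, where 16.4% of all genes were called, 6.51% lower and 9.87% higher. In EGR1OV against H/R, E2f1 was called higher and Rb1 lower, where 18.9% of all genes were called, 11.9% higher and 6.94% lower. By adjusted p alone, without a fold threshold, 3 members passed after H/R (E2f1, E2f4 and E2f8), 2 in EGR1OV against Sham (E2f4 and Rb1) and 3 in EGR1OV against H/R (E2f1, Rb1 and Rbl1), where 11.7%, 45.9% and 51.0% of all genes did. In both EGR1OV comparisons the members were called about as often as genes in general. The comparisons with Sham share the Sham libraries. The share of all calls that were higher was 37.7% after H/R (57.9% with median-ratio scaling and 56.5% with quantile normalization), 60.3% in EGR1OV against Sham (45.9% with quantile normalization) and 63.2% in EGR1OV against H/R (52.1% and 42.5%).

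**Figure D2:**
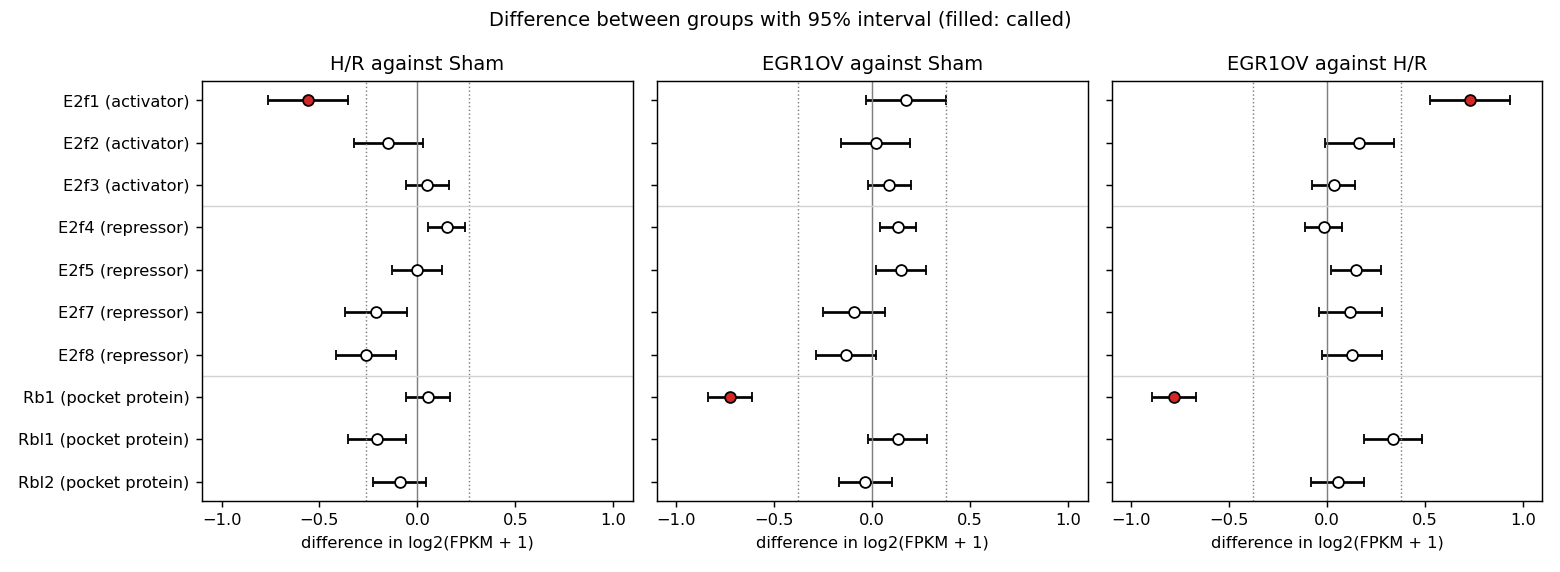
Difference between group means in log2(FPKM + 1) (horizontal axis) for each member in each comparison, with the 95% confidence interval from limma as bars. Filled points are called and dotted lines mark the fold threshold. E2f1 is filled after H/R (-0.56), Rb1 in EGR1OV against Sham (-0.73), and both in EGR1OV against H/R (0.73 and -0.78).

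Among the activators, E2f1 differed most between the groups. E2f1 drives S phase genes and can also induce apoptosis. Its gene lies at chr2:154559407-154569892 on the minus strand (GRCm38). E2f1 was 3.32, 3.69 and 3.63 FPKM in the Sham libraries, 1.68, 2.22 and 2.40 FPKM under H/R, and 4.43, 4.21 and 3.75 FPKM in EGR1OV. These levels rested on 172 to 203, 86 to 134 and 199 to 232 reads. Every H/R library was below every Sham library, and every EGR1OV library was above them. The mean fell from 3.55 ± 0.201 FPKM (SD, n = 3) in Sham to 2.1 ± 0.371 FPKM after H/R, 1.69-fold, and the difference was -0.56 on the log2(FPKM + 1) scale (95% CI -0.76 to -0.35, limma adjusted p 0.00664). Fewer cells that express E2f1 and less E2f1 RNA per cell cannot be told apart in these bulk libraries. In EGR1OV the mean was 4.13 ± 0.347 FPKM. Its difference from Sham was 0.17 (95% CI -0.03 to 0.38, limma adjusted p 0.153), so E2f1 was not called there although the libraries did not overlap. Its difference from H/R was 0.73 (95% CI 0.53 to 0.94, limma adjusted p 0.000136). With 3 libraries against 3, the exact two-sided permutation test cannot give a p below 0.1, and that was its value for E2f1 in each comparison.

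E2f2 and E2f3 were not called in any comparison. E2f2, an activator known for its part in blood cells, was the scarcest member, at 49 to 75 reads per library. It was 0.723, 0.764 and 0.782 FPKM in Sham, 0.620, 0.557 and 0.577 FPKM under H/R and 0.925, 0.639 and 0.779 FPKM in EGR1OV. The H/R libraries were all below Sham, with a difference of -0.15 (95% CI -0.32 to 0.03, limma adjusted p 0.255), and the EGR1OV libraries overlapped Sham. E2f3, an activator needed for proliferation in many cell types, was the most abundant activator. E2f3 was 8.78, 7.97 and 8.25 FPKM in Sham, 8.62, 8.58 and 8.80 FPKM under H/R and 8.97, 9.41 and 8.34 FPKM in EGR1OV. All 3 groups overlapped, and the interval of the difference was -0.06 to 0.16 for H/R and -0.02 to 0.20 for EGR1OV against Sham.

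The repressors that act with pocket proteins, E2f4 and E2f5, differed little between the groups. E2f4 was 23.8, 23.3 and 24.1 FPKM in Sham, 25.8, 26.8 and 26.7 FPKM under H/R and 24.4, 26.4 and 27.5 FPKM in EGR1OV. Every library of both treated groups was above every Sham library. The difference after H/R was 0.15 (95% CI 0.06 to 0.24, limma adjusted p 0.0497) and in EGR1OV 0.13 (95% CI 0.04 to 0.23, limma adjusted p 0.0278), both under the fold thresholds, so neither was called. E2f5 was 10.3 to 10.95 FPKM in Sham, 9.89 to 11.6 FPKM under H/R and 11.3 to 12.1 FPKM in EGR1OV. The H/R libraries spanned the Sham range, and the EGR1OV libraries lay above Sham with a difference of 0.15 (95% CI 0.02 to 0.27, limma adjusted p 0.0569).

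The atypical repressors E2f7 and E2f8 are low-abundance genes that are themselves E2F targets. E2f7 was 1.18, 1.2 and 1.32 FPKM in Sham, 0.899, 1.01 and 0.876 FPKM under H/R and 1.00, 1.05 and 1.24 FPKM in EGR1OV. E2f8 was 1.08, 1.13 and 1.22 FPKM in Sham, 0.704, 0.889 and 0.777 FPKM under H/R and 0.918, 0.978 and 0.961 FPKM in EGR1OV. For both genes every H/R library was below every Sham library. E2f8 after H/R came closest to a call without passing, with a difference of -0.26 (95% CI -0.41 to -0.11, limma adjusted p 0.0389) that lay just inside the fold threshold. E2f8 was called with a pseudocount of 0.1 FPKM (-0.49), with voom on the recovered reads (-0.53) and without H/R replicate 2 (-0.30). E2f7 differed by -0.21 (95% CI -0.37 to -0.05, limma adjusted p 0.0838) and was called with voom (-0.41). In EGR1OV the E2f8 libraries were also all below Sham, by -0.14 (limma adjusted p 0.134), and those of E2f7 overlapped Sham.

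Among the pocket proteins, Rb1 fell in EGR1OV, and Rbl1 and Rbl2 were not called in any comparison. Rb1 encodes the retinoblastoma protein, which binds activator E2Fs, and lies at chr14:73183673-73325822 on the minus strand (GRCm38). Rb1 was 8.23, 8.62 and 8.41 FPKM in Sham, 8.17, 8.75 and 9.44 FPKM under H/R and 4.56, 4.74 and 4.76 FPKM in EGR1OV, on 456 to 1007 reads. The EGR1OV libraries were all below the others and close together, while the H/R libraries spanned the Sham range. The mean fell from 8.42 ± 0.195 FPKM (SD, n = 3) in Sham to 4.69 ± 0.108 FPKM in EGR1OV, 1.80-fold. On the log2(FPKM + 1) scale the difference was -0.73 (95% CI -0.84 to -0.62, limma adjusted p 2.52e-06) from Sham and -0.78 (95% CI -0.89 to -0.67, limma adjusted p 1.45e-06) from H/R. After H/R it was 0.05 (95% CI -0.06 to 0.16). All 7 leukocyte markers tested were called lower in EGR1OV against Sham, and 3 of 9 tubule markers were called lower and 1 higher. Their part in the Rb1 result was not tested.

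Rbl1 and Rbl2 encode the pocket proteins that pair mainly with E2F4 and E2F5. Rbl1 was 4.54, 3.91 and 3.74 FPKM in Sham, 3.57, 3.12 and 3.46 FPKM under H/R and 4.39, 4.62 and 4.57 FPKM in EGR1OV. Its H/R libraries were all below those of the other groups. The difference from Sham was -0.21 (95% CI -0.36 to -0.06, limma adjusted p 0.0767). Between EGR1OV and H/R, Rbl1 differed by 0.34 (95% CI 0.19 to 0.49, limma adjusted p 0.00226), under the fold threshold of 0.38, and it was called with a pseudocount of 0.1 FPKM (0.41) and with voom (0.42). Rbl2 was 2.76 to 3.27 FPKM in Sham, 2.71 to 2.88 under H/R and 2.83 to 3.14 in EGR1OV. The groups overlapped in all comparisons of Rbl2.

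Counted over the 10 members, 1 lay above and 5 lay below Sham in every H/R library, where the groups did not overlap for 33.6% of all genes. In EGR1OV 3 lay above and 2 below Sham, where the share over all genes was 55.7%. Against H/R, 4 members lay above and 1 below in EGR1OV, where it was 58.6%. The median difference of the members was -0.12 after H/R, 0.05 in EGR1OV against Sham and 0.12 in EGR1OV against H/R, beside -0.03, 0.02 and 0.05 over all genes tested.

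Activators were next compared with repressors within each library, as a description without a test. The 3 activators held 25.5 to 25.7% of the summed FPKM of the 7 E2f genes in Sham and 22.4 to 22.8% after H/R. The ranges did not overlap. In EGR1OV the share was 23.5 to 27.1% and spanned the Sham range. The summed activators went from 12.6 ± 0.201 FPKM (SD, n = 3) in Sham to 11.3 ± 0.424 FPKM after H/R, while the summed repressors were 36.7 ± 0.453 and 38.8 ± 1.1 FPKM. E2f1 alone went from 7.19 ± 0.486% to 4.18 ± 0.631% of the total, and E2f4 from 48.1 ± 0.466% to 52.7 ± 1.05%. The mean log2(FPKM + 1) of the activators minus that of the repressors was -0.53 ± 0.0116 in Sham, -0.67 ± 0.0255 under H/R and -0.45 ± 0.112 in EGR1OV. With E2f7 and E2f8 left out of the repressors the values were -2.01, -2.30 and -2.06, so H/R stayed below Sham, whereas the EGR1OV mean lay above Sham with all repressors and below it without these genes. With all repressors the EGR1OV libraries were at -0.35, -0.45 and -0.57, and replicate 3 was below every Sham library. By class, the median difference after H/R was -0.15 for the activators, -0.11 for the repressors and -0.09 for the pocket proteins, but the members of both E2f classes went both ways, with E2f3 and E2f4 above 0.

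The proportions of the pocket protein genes in EGR1OV lay outside the range of the other groups, as a description without a test. Rb1 made up 54.2 ± 1.08% of their summed FPKM in Sham, 58.7 ± 2.14% under H/R and 38.5 ± 0.725% in EGR1OV. Rbl1 made up 26.2 ± 2.67%, 22.6 ± 1.69% and 37.2 ± 0.813%. The sum itself was 15.5 ± 0.113 FPKM in Sham, 14.97 ± 0.705 FPKM under H/R and 12.2 ± 0.0683 FPKM in EGR1OV. The ratio of Rb1 to E2f1 transcript levels was 2.38 ± 0.0904 in Sham, 4.24 ± 0.525 under H/R and 1.14 ± 0.121 in EGR1OV. No library of one group reached the range of another in this ratio. It is built from the called members E2f1 and Rb1, so this separation follows from their levels and adds no support to their calls. E2f4 stood at 6.71 ± 0.448 times the level of E2f1 in Sham, 12.8 ± 2.19 times under H/R and 6.37 ± 0.914 times in EGR1OV. Protein levels and phosphorylation were not measured here.

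**Figure D3:**
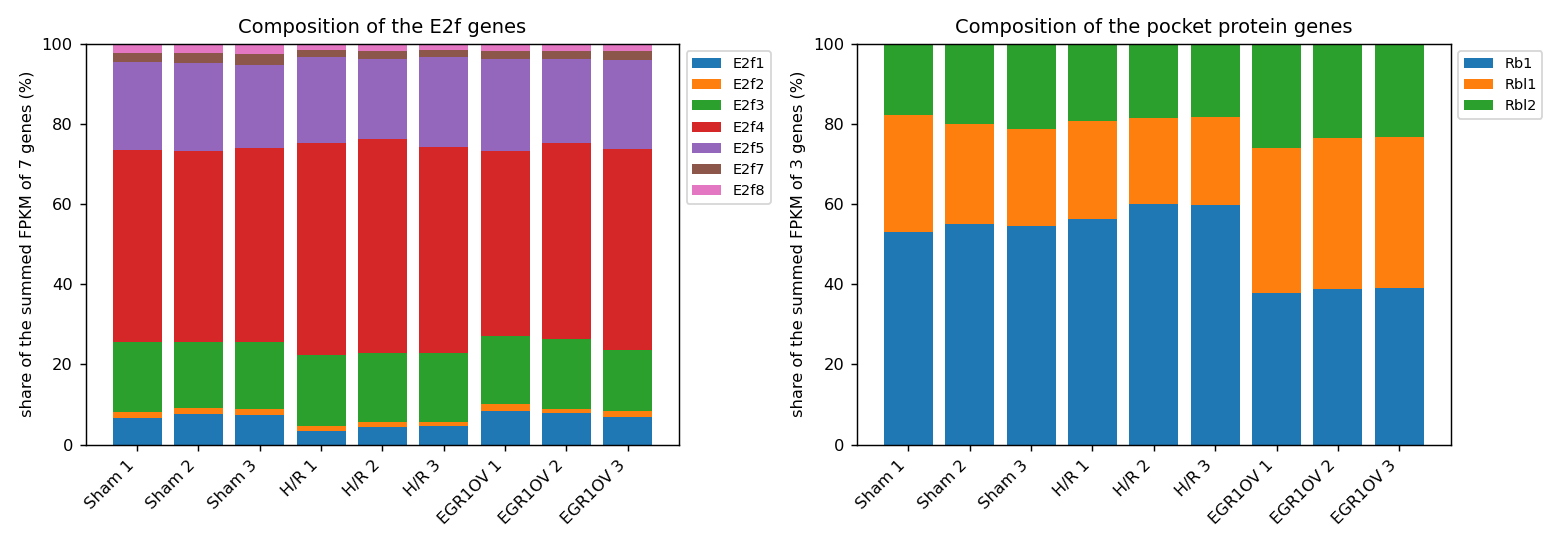
Share of the summed FPKM in percent (vertical axis) held by each of the 7 E2f genes (left) and each of the 3 pocket protein genes (right) in each of the 9 libraries (horizontal axis). E2f4 is the largest block everywhere (46.3 to 53.7%), E2f1 is thinnest under H/R, and the Rb1 block drops to 37.7 to 39.1% in EGR1OV.

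The genes that work upstream of, or together with, the family were read from lists. G1 cyclins and their kinases phosphorylate pocket proteins. After H/R, 2 of 8 were called, both lower, the E-type cyclins that activate Cdk2. Ccne1 fell from 5.41 ± 0.384 to 3.63 ± 0.414 FPKM (log2 difference -0.47, SE 0.0748, limma adjusted p 0.00595) and Ccne2 from 3.02 ± 0.257 to 2.13 ± 0.0647 FPKM (-0.36, SE 0.0752, limma adjusted p 0.0182). The count was 1 without the filter on low values, without Sham replicate 3 and without H/R replicate 3. After H/R 2 of the 8 differences were above 0 and 6 below. Ccnd1 was higher (0.17, limma adjusted p 0.00595). Ccnd2 (-0.12, limma adjusted p 0.0363) and Ccnd3 (-0.23, limma adjusted p 0.00628) were lower. These D-type cyclins passed the adjusted p but not the fold threshold. None of the 8 was called by limma in EGR1OV against Sham, where 6 had an unadjusted p under 0.05. Some passed the adjusted p but not the fold threshold, among them Ccnd1 (-0.30, limma adjusted p 1.93e-05) and Ccnd3 (0.32, limma adjusted p 0.000103). Of the 8 differences from Sham 2 were above 0 and 6 below. There 1 was called lower with voom, with a pseudocount of 0.1 FPKM, with quantile normalization and without EGR1OV replicate 1. Against H/R, EGR1OV had higher Ccnd3 (10.2 ± 0.366 against 6.68 ± 0.119 FPKM) and Ccne1 (5.65 ± 0.386 FPKM) and lower Ccnd1 (44.4 ± 0.950 against 62.3 ± 0.113 FPKM), the D-type cyclins being partners of Cdk4 and Cdk6. Of the 7 CDK inhibitors none was called by limma after H/R, where 3 had an unadjusted p under 0.05. Cdkn2a passed the adjusted p but not the fold threshold (0.25, limma adjusted p 0.0394). There 1 was called lower with voom, with the replicate number as a block and without H/R replicate 2, and 1 was called higher with either scaling alternative and without Sham replicate 1. Cdkn1c, which encodes the inhibitor p57, fell in EGR1OV from 1.92 ± 0.540 to 0.769 ± 0.255 FPKM (log2 difference -0.72, SE 0.136, limma adjusted p 0.00215). Of the 7 differences between EGR1OV and Sham 4 were above 0 and 3 below. Cdkn1a rose from 242 ± 2.04 to 274 ± 3.07 FPKM (0.18, limma adjusted p 0.000295). Cdkn1b was lower (-0.18, limma adjusted p 0.0233). Both passed the adjusted p but not the fold threshold.

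Of the DP genes Tfdp1 and Tfdp2 and of E2f6, a repressor outside the pocket protein system, none was called by limma or voom in any comparison, and 2 of the 3 had an unadjusted p under 0.05 in each comparison with Sham. Their differences ranged from -0.15 up to 0.05 after H/R and from -0.19 up to -0.05 in EGR1OV against Sham. Without reaching the fold threshold, Tfdp1 passed the adjusted p after H/R (limma adjusted p 0.0348) and in EGR1OV (limma adjusted p 0.00272). Tfdp2 did so in EGR1OV (-0.14, limma adjusted p 0.0408). A list of 8 genes held corepressors of pocket proteins and the kinase gene Dyrk1a, and none of the 8 was called by limma in any comparison. The differences were -0.13 to 0.05 after H/R, where 4 had an unadjusted p under 0.05 in limma and in voom, and voom called none. In EGR1OV against Sham they ranged from -0.29 up to 0.37, and 6 had an unadjusted p under 0.05. Arid4a (0.37, limma adjusted p 8.42e-05) and Hdac2 (-0.29, limma adjusted p 0.000111), at the ends of that range, passed the adjusted p but not the fold threshold. There 1 gene was called higher with voom, with a pseudocount of 0.1 FPKM and without EGR1OV replicate 3. Of 8 genes for MuvB subunits, Myb proteins and Foxm1, 2 were called lower after H/R. Mybl2, which encodes B-Myb, a partner of MuvB in activating mitotic genes, fell from 2.63 ± 0.110 to 1.83 ± 0.120 FPKM (log2 difference -0.36, SE 0.0601, limma adjusted p 0.00741), and Lin54, the DNA-binding MuvB subunit, from 3.08 ± 0.0649 to 2.38 ± 0.127 FPKM (-0.28, SE 0.0583, limma adjusted p 0.0190). The count was 1 with either scaling alternative, without the filter on low values, without Sham replicate 1 or 3 and without H/R replicate 1, and it was 3 with a pseudocount of 0.1 FPKM and with voom. In EGR1OV against Sham, 7 of the 8 differences were above 0 and 1 gene was called, the MuvB subunit Lin37. It rose from 7.77 ± 0.383 to 10.7 ± 0.547 FPKM (log2 difference 0.41, SE 0.0837, limma adjusted p 0.00317). Mybl2 (0.33, limma adjusted p 0.00184), Lin54 (0.19, limma adjusted p 0.0272) and Mybl1 (-0.34, limma adjusted p 0.0014) passed the adjusted p but not the fold threshold. With quantile normalization none was called higher and 1 was called lower. With voom or a pseudocount of 0.1 FPKM 2 were called higher and 1 lower, and without EGR1OV replicate 1 there was 1 in each direction. Against H/R, 3 of the 8 were called higher in EGR1OV, 2 with median-ratio scaling or without H/R replicate 3 and 1 with quantile normalization.

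Known E2F targets of the G1/S phase were mostly lower after H/R, as E2f1 was. Of 35 targets tested, 20 were called lower and none higher, where 2.65% of all genes tested were called lower. Below 0 were 34 of the 35 differences. The median difference was -0.28, beside -0.03 over all genes. Mcm5 and Mcm2, subunits of the replicative helicase, and Prim1, the primase, had the largest falls. Mcm5 went from 7.49 ± 0.395 to 4.69 ± 0.124 FPKM (log2 difference -0.58, SE 0.0590, limma adjusted p 0.000789), Mcm2 from 7.85 ± 0.354 to 5.31 ± 0.218 FPKM (-0.49, SE 0.0485, limma adjusted p 0.000687) and Prim1 from 3.25 ± 0.228 to 2.09 ± 0.137 FPKM (-0.46, SE 0.0591, limma adjusted p 0.0024). The count of called targets was 13 with either scaling alternative and 12 without the filter on low values. It was 13 without Sham replicate 3, 13 without H/R replicate 1 and 12 without H/R replicate 3. The summed leukocyte markers were lower after H/R as well, with 2 of 7 called, and the summed fibroblast markers were higher (39.3 to 40.6 against 32.8 to 34.5 FPKM). Of the 4 fibroblast markers tested 3 were above 0 and 1 below. Col1a1 and Col1a2 were called higher, while Pdgfrb was lower without a call (-0.23, limma adjusted p 0.0424). The part of the leukocyte and fibroblast markers in the target counts was not tested.

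Genes of the G2/M phase, which DREAM and B-Myb control, leaned the same way. After H/R, 11 of 20 were called lower and none higher, with a median of -0.29, where 2.65% of all genes were called lower. The count was 7 with quantile normalization, 6 without Sham replicate 3 and 7 without H/R replicate 3. Bub1b, a spindle checkpoint kinase, fell from 5.62 ± 0.348 to 4.14 ± 0.226 FPKM (log2 difference -0.36, limma adjusted p 0.00397), and Ccnb2, a mitotic cyclin, from 9.43 ± 0.880 to 7.13 ± 0.783 FPKM (-0.36, limma adjusted p 0.0292). Birc5, which encodes the chromosomal passenger protein survivin, fell from 5.21 ± 0.539 to 3.85 ± 0.576 FPKM (-0.36, limma adjusted p 0.0328).

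In EGR1OV, where Rb1 was lower, the medians of these lists were near 0 and single targets went both ways. Of the 35 G1/S targets 11 had an unadjusted p under 0.05 and 9 an adjusted p under 0.05, 6 higher and 3 lower, among them Cdt1 (0.34) and Rrm2 (-0.28), a subunit of ribonucleotide reductase. With the fold threshold 1 was called, Mcm6, a helicase subunit that rose from 15.5 ± 0.819 to 25.6 ± 0.0927 FPKM (log2 difference 0.69, SE 0.0399, limma adjusted p 8.10e-07). The count was 3 without Sham replicate 3 or with a pseudocount of 0.1 FPKM and 4 with voom. The median over the targets was 0.04 and turned to -0.04 with quantile normalization. None of the 20 G2/M genes was called by limma or voom, and 2 had an unadjusted p under 0.05 in limma. Plk1 rose from 12.3 ± 0.170 to 15.8 ± 0.0591 FPKM (log2 difference 0.34, limma adjusted p 0.00023), under the fold threshold. Of the 20 differences 12 were above 0 and 8 below, and their median was 0.02 (-0.07 with quantile normalization). Against H/R, 14 of 35 G1/S targets and 5 of 20 G2/M genes were called higher in EGR1OV and none was called lower. Of all genes tested 11.9% were called higher there. The G1/S differences were above 0 for 33 targets and below 0 for 2, with a median of 0.33. The G2/M differences were above 0 for 19 genes and below 0 for 1, with a median of 0.29. Mcm6 differed by 0.91, Mcm5 by 0.84 and Cdt1, a licensing factor, by 0.74. The G1/S count was 8 with quantile normalization and 22 with a pseudocount of 0.1 FPKM, and the G2/M count was 1 with quantile normalization and 9 with voom. The low leukocyte and tubule markers of EGR1OV stand beside these counts too, and their part was not tested.

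**Figure D4:**
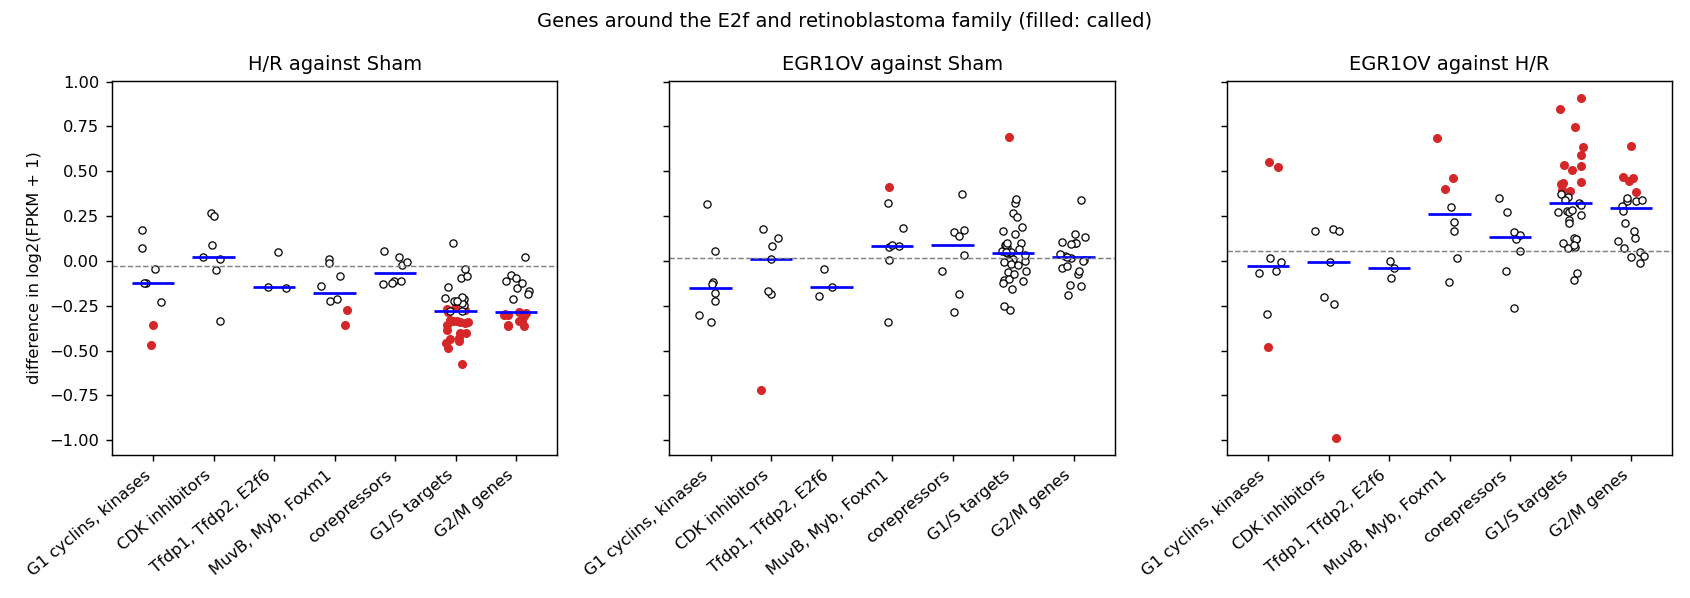
Difference in log2(FPKM + 1) (vertical axis) of each tested gene in 7 lists (horizontal axis) in each comparison. Points are genes, filled where called, blue lines are list medians and the dashed line is the median of all genes tested. The G1/S and G2/M points lie mostly below 0 after H/R (medians -0.28 and -0.29) and above 0 in EGR1OV against H/R (0.33 and 0.29).

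Promoter sequences were read for the members and for the targets named above, to show which of them carry the letters that E2F proteins bind. In the RefSeq windows (GRCm38.p6, 250 bases before to 50 after each start site) 7 of the 10 members matched a window. The letters TTTCCCGC, TTTCGCGC, TTTGCCGC and TTTGGCGC were searched on both strands. They were in a window of 4 of these 7 genes, E2f2, E2f3, E2f7 and Rbl1. Counted by window, 4 of the members' 9 windows held them, as did 2.26% of all 32851 windows, and the second windows of E2f2 and E2f3 held none. Of the targets named above, Mcm2 and Prim1 had a window that held none. The windows of E2f1, E2f8 and Rbl2 held none, and the E2f1 window starts from a RefSeq site 466 bases downstream of the 5′ end in GENCODE M21. Each sequence is 30 bases on the strand of the gene with the match in capitals.
E2f2: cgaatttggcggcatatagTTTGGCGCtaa
E2f3: ttgaaaagccgGCGGGAAAtctgagtttcg
E2f7: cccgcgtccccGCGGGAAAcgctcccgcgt
Rbl1: aagaaggcgatTTTCGCGCgctttgtcgcg
Mcm5: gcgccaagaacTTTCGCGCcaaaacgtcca
Mcm6: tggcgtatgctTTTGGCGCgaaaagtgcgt
Cdt1: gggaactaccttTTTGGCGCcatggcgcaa
The E2f2 sequence lies at chr4:136172294-136172323 on the plus strand and its match begins 39 bases after the start site. That of E2f3 lies at chr13:29986056-29986085 on the minus strand with its match 11 bases before the start site, that of E2f7 at chr10:110745230-110745259 on the plus strand, 198 bases before it, and that of Rbl1 at chr2:157204534-157204563 on the minus strand, 18 bases before it. The Mcm5 sequence lies at chr8:75109345-75109374 (plus strand), the Mcm6 sequence at chr1:128359797-128359826 (minus strand) and the Cdt1 sequence at chr8:122568035-122568064 (plus strand). In Mcm5 and Mcm6 a second match on the other strand overlaps the printed one. Mcm6 also holds a separate match, TTTGGCGC, that begins 47 bases before the start site.

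The 4 members with the letters did not share a pattern of expression. E2f2, E2f7 and Rbl1 had every H/R library below Sham and were not called, and E2f3 overlapped Sham, while E2f1, without the letters in its window, was called lower. Of the G1/S targets, 30 matched a window and 15 held the letters. After H/R, 9 of the 15 targets with the letters and 6 of the 14 tested targets without them were called lower, with medians of -0.28 and -0.26. Of 17 G2/M genes with a window only Cdk1 held them. The Egr1-type letters GCGTGGGCG and GCGGGGGCG were in no member's window and in 3.47% of all windows. A match is a run of letters, and binding was not measured here.

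The genes most like E2f1 over the 9 libraries, by the root-mean-square difference of their centred log2(FPKM + 1) values, were Them6 (0.111) and Cpne2 (0.112), where the median over 7588 genes averaging 5 FPKM or more was 0.324. Them6 was 5.47 ± 0.0453 FPKM in Sham, 3.88 ± 0.487 under H/R and 7.58 ± 0.534 in EGR1OV. For Rb1 they were Pdgfd (0.0426), which encodes a platelet-derived growth factor, and Adamts5 (0.0434), which encodes a secreted protease, where the median over 7587 genes was 0.390. Pdgfd was 26.7 ± 0.305 FPKM in Sham, 28.9 ± 0.980 under H/R and 16.3 ± 0.594 in EGR1OV, and Adamts5 was 41.1 ± 1.19, 42.1 ± 2.42 and 25.4 ± 0.538 FPKM.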

How the data were processed

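The authors deposited a table of FPKM with a column for each of the 9 libraries, not pooled. The submitters' processing notes list Bowtie2 2.2.3, HISAT2 2.1.0, TopHat2 and the build mm9 with no role, and the counter and annotation are not given in the sources used here. Gene positions equalled GENCODE M21 (GRCm38) for 94.6% of genes, so coordinates are given in GRCm38. FPKM are not counts. With exon lengths from GENCODE M21, values between libraries gave whole reads within 0.02 reads for 94.0% of 162952 values. The recovered reads gave the depth, the reads per gene, the comparison of libraries with sampling noise and the levels of the simulated data. Of the fits to the data only voom used them, an alternative chosen after seeing the data.

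The 13985 genes that averaged 0.5 FPKM or more were tested with limma 3.58.1 (R 4.3.3) on log2(FPKM + 1), in 1 fit over the 3 groups with the variance trended on the mean level, two-sided, with Benjamini-Hochberg adjustment over all genes. Adjusted p-values are from this fit. The fold thresholds against Sham follow the study, and that against H/R was set equal to the one for EGR1OV against Sham. Libraries of a group differed by more than sampling noise (chi-square per degree of freedom 1.97 to 3.59), so all were kept as replicates. Groups came from the sample titles. The script was tested on simulated data. Genes were named if they were members, or up to 3 called genes per list and comparison with the largest change whose groups did not overlap, or up to 2 genes nearest in pattern to a called member. The members and lists were chosen with earlier results of these data known. Of the 36 G1/S targets, Fen1 was below the filter. The alternatives were a pseudocount of 0.1 FPKM, no filter, median-ratio scaling, quantile normalization, a replicate block, only the 2 groups compared, no trend, no fold threshold and leaving out each library. The table's annotation columns beside symbol, identifier and position were not used.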

Additional observations from a re-analysis of the deposited data

Results flagged for a closer look

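For 3 members the differences of the treated groups from Sham differed from each other. The difference between EGR1OV and H/R is the test of this, and it passed an adjusted p of 0.05 in limma for E2f1, Rb1 and Rbl1. Of all genes tested 51.0% passed the same threshold, so the members did not pass it more often than genes in general. For E2f1 it was 0.73 on the log2(FPKM + 1) scale (limma adjusted p 0.000136). Every H/R library of E2f1 was below every Sham library and every EGR1OV library was above them, and the call held under all 17 alternatives, from 0.62 to 0.97. For Rb1 it was -0.78 (limma adjusted p 1.45e-06), with the H/R libraries overlapping Sham and the EGR1OV libraries all below, and it was -0.91 to -0.73 over the alternatives. For Rbl1 it was 0.34 (limma adjusted p 0.00226, 0.21 to 0.42 over the alternatives), with the H/R libraries all below Sham and the EGR1OV libraries overlapping Sham, and neither group was called against Sham.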

How the results depend on the processing

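The calls of E2f1 after H/R and of Rb1 in EGR1OV held under all 17 alternatives, with differences of -0.76 to -0.46 and -0.84 to -0.71. Without a fold threshold the called members were 2 (EGR1OV against Sham) and 3 (H/R), the called G1/S targets 9 (EGR1OV against Sham) and 27 (EGR1OV against H/R), and all called genes 6417, 1635 (H/R) and 7135 (EGR1OV against H/R), as its construction requires. With a pseudocount of 0.1, 2 members were called after H/R, and 3 (EGR1OV against Sham) and 22 (EGR1OV against H/R) targets. Voom gave 3 members and 995 genes after H/R, and 4 and 22 targets in the EGR1OV comparisons. After H/R the targets were 12 without a filter and 13 with either scaling, and quantile normalization gave 8 in EGR1OV against H/R. The cause was not tested.

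Signs turned only for members that were not called. With quantile normalization these were E2f3 in EGR1OV against Sham (-0.018) and against H/R (-0.11), E2f5 after H/R (0.023) and Rbl2 in EGR1OV against H/R (-0.045), and with median-ratio scaling E2f5 after H/R (0.035) and E2f3 in EGR1OV against H/R (-0.023). Leaving out 1 library also turned signs. In EGR1OV against Sham, E2f2 ranged from -0.040 (without EGR1OV replicate 1) to 0.076 and Rbl2 from -0.088 to 0.0040 (without Sham replicate 3). After H/R, E2f5 ranged from -0.061 to 0.044 (above 0 without Sham replicate 1, H/R replicate 1 or H/R replicate 2). In EGR1OV against H/R, E2f3 ranged from -0.0016 (without EGR1OV replicate 2) to 0.077 and E2f4 from -0.054 to 0.028 (without EGR1OV replicate 1). A group then has 2 libraries. Over these leave-outs 1 to 1, 1 to 2 and 2 to 2 members were called (EGR1OV against Sham, H/R, EGR1OV against H/R), 1 to 3, 12 to 19 and 11 to 17 targets, and 2238 to 2373, 449 to 579 and 2583 to 2703 genes.

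The activator minus repressor difference was -0.61 in Sham and -0.77 in H/R with a pseudocount of 0.1, and -2.01, -2.30 and -2.06 in Sham, H/R and EGR1OV without E2f7 and E2f8, where its change in EGR1OV went from 0.080 to -0.047. Replicate numbers did not pair the libraries. The deviations of same-numbered libraries correlated at -0.02 to 0.06 over 9 pairs. With the replicate number as a block the member calls were 1, 1 and 2, the targets 1, 14 and 14 and all genes 2309, 516 and 2654. Depth limits E2f2 and E2f8 most, at 49 to 110 reads per library.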
